A study of Danio rerio with 28 samples.

Results

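The cytosolic ribosomal protein genes of the zebrafish were followed through heart regeneration. Members were chosen by symbol alone: every gene whose symbol begins with rpl or rps followed by a number, together with the acidic stalk proteins (rplp0 and its relatives) and any gene named rpla or rpsa, was taken, and the S6 kinases were left out. This gave 84 of the 32520 gene identifiers of the deposited tables, 47 with names of the large subunit and 37 with names of the small subunit. A symbol carried by a pair of identifiers occurred 4 times, among them rpl5 and rps26. For these the identifier with the higher level per gene length (TPM) before injury is called the major and the other the minor. The symbol rule also caught rps19bp1, which encodes a protein that binds Rps19 and is not itself part of the ribosome, and rpl7l1, whose human counterpart acts during assembly of the large subunit. Of the 84 members, 83 passed the filter on low counts in each experiment; the remaining member held at most 4 counts in any library and was not tested.

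RNA was sequenced from 28 libraries of adult zebrafish hearts, 4 to 6 months old, each pooled from at least 5 fish. The time course comprised WT and thraa+/- fish, which carry an insertion in 1 of their 2 copies of the thyroid hormone receptor gene thraa, with 2 libraries each from the uninjured ventricular apex and from the injured zone at 8 hours post injury (hpi) and at 1, 3, 7 and 15 days post injury (dpi), after resection of about 20% of the apex. The labels call these mutants knockouts, and their heterozygous genotype is stated in the methods of the study. The second experiment compared 2 libraries of uninjured WT hearts with 2 labelled homozygous for the mutation (thraa-/-), named whole hearts in the titles although the protocol describes ventricles. The mutation is present in all tissues from fertilization onwards, the mutants share an allele whose receptor is truncated, and the labels record neither sex nor clutch.

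Each ribosome is built from a small subunit, which reads the mRNA, and a large subunit, which joins the amino acids, and nearly every protein of both is needed in equal number. Vertebrate ribosomal protein mRNAs are among the most abundant of any cell, and they share a pyrimidine tract at their start through which their translation is tuned to nutrients and growth signals by mTORC1 and Larp1. In regenerating zebrafish hearts the injured zone gains inflammatory, epicardial and proliferating cells while cardiomyocytes are replaced, so the RNA of the tissue comes from a changing mixture of cells.

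The libraries held 13.7 to 18.8 M counts on genes in the time course and 13.7 to 16.5 M in the whole hearts, of which 0.763 to 1.63 M in a library fell on the members. Counts of thraa itself were 32 to 105 in the time course, where they did not separate the genotypes, 99 and 80 in WT whole hearts and 202 and 143 in those labelled thraa-/-. An insertion need not lower the mRNA, so these counts do not check the labels. The replicates of thraa+/- at 8 hpi differed by 23.9 times counting noise (chi-square per degree of freedom), those of WT whole hearts by 15.4 and the others by 1.88 to 8.68. Counts of members called at 8 hpi on TMM or total-count scaling that rest on the thraa+/- pair are given also without each of its libraries, as are the log2 values of rpl7l1, rpl31 and rpl35a at that time. In these bulk samples, fewer cells of a type and less RNA per cell cannot be told apart.

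Ribosomal protein mRNA took up a larger part of the library in the first week after resection, highest at 3 dpi, and a smaller part than before injury at 15 dpi. In WT the members held 7.34% and 7.26% of all counts in the 2 uninjured libraries. At 8 hpi the libraries gave 7.58% and 8.36%, followed by 9.05% and 9.41% at 1 dpi. The 3 dpi pair held the highest shares, 10.0% and 9.79%. The later pairs were lower, with 8.25% and 8.14% at 7 dpi, and 6.50% and 6.01% at 15 dpi. None of the injured WT groups overlapped the uninjured pair. The mean differed from uninjured by 26.4% at 1 dpi, by 35.7% at 3 dpi and by -14.4% at 15 dpi, while the SD within a pair was between 0.054 and 0.549 percentage points. Sampling error is small beside this: the Wilson 95% interval of a share spanned 0.0208 to 0.0298 percentage points, which covers counting error only.

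thraa+/- hearts traced the same shape from a lower start. Their uninjured libraries gave 6.43% and 6.46%, and the 3 dpi libraries 9.47% and 9.91%, which is 50.3% above uninjured against 35.7% in WT. Much of this contrast came with the mitochondrially encoded genes. With these taken out of the total, the mean share went from 8.22% to 10.8% in thraa+/- and from 8.55% to 10.9% in WT. The 8 hpi libraries gave 6.39% and 7.85% and lay on both sides of the uninjured pair. The 1 dpi pair gave 8.77% and 8.86%, the 7 dpi pair 8.35% and 8.49%, the 15 dpi pair 5.60% and 5.57%. From 1 to 7 dpi the injured libraries all lay above the uninjured pair, and at 15 dpi they lay below it. These shares are descriptions without a test, since with 2 libraries in each group the smallest two-sided p of an exact permutation is 0.333.

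**Figure D1:**
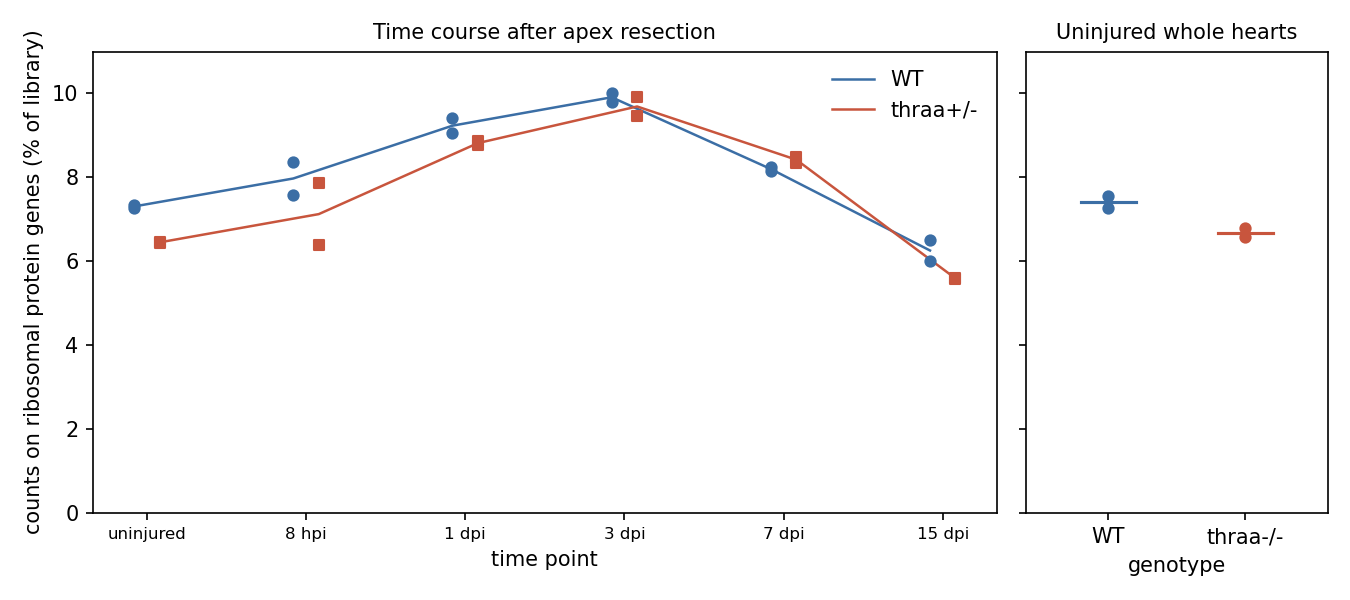
Percent of all counts on genes that fell on the 84 ribosomal protein genes (y axis) in each library (points) by time after resection in WT and thraa+/- hearts, and in whole hearts of WT and thraa-/- fish; lines join group means. The share was highest at 3 dpi in both genotypes (10.0% and 9.79% in WT) and lowest at 15 dpi.

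The large and small subunits kept step: the summed counts of rpl genes were 1.47 to 1.58 times those of rps genes in every library of the time course. On the TPM scale, where levels are divided by gene length, the members made up 12.03% to 20.5% of the total in a time-course library. Markers of other cells moved over the same interval. The summed TPM of the erythrocyte markers went from 10519.5 and 10769 in uninjured WT to 43737 and 44656 at 3 dpi, that of the leukocyte markers from 401 and 424 to 1743 and 1753, and that of the cardiomyocyte markers from 153362 and 153900 to 75656 and 76796. Counts on genes of the mitochondrial genome went from 14.7% and 14.5% of the library to 8.91% and 8.89%. The part of these shifts in the share of the members was not tested.

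Whether single members were called higher or lower after injury depended on how the libraries were scaled, and no direction of the family can be given without naming the scale. TMM factors, which align the libraries on the bulk of genes, were 0.679 to 0.698 in the uninjured libraries and 1.16 to 1.29 at 3 and 7 dpi. With them, edgeR's quasi-likelihood test at an adjusted p under 0.05 called 49 of 83 members lower and 5 higher in WT at 3 dpi, where 25.5% and 32.2% of all 17837 genes were called lower and higher. The 5 higher calls were 2 without either uninjured library or without replicate 1 of 3 dpi. With total counts in place of TMM the same libraries gave 77 members higher and none lower, against 59.3% and 11.3% of all genes. The median of all genes is itself moved by the scaling, from between 0 and 0.22 on the log2 scale with TMM to between 0.45 and 1.06 with total counts over the 10 injury comparisons, so the members are described relative to it.

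Relative to the median gene the family stood lower at every time after injury, least at 1 dpi and most at 7 and 15 dpi, on the edgeR log2 scale with its usual filter on low counts. In WT the median member minus the median of all genes was -0.48 at 8 hpi, -0.28 at 1 dpi, -0.51 at 3 dpi, -0.88 at 7 dpi and -0.80 at 15 dpi. In thraa+/- the values were -0.37, -0.09, -0.25, -0.61 and -0.65. The value of thraa+/- at 8 hpi was -0.08 without replicate 1 of that pair and -0.61 without replicate 2. At 1 dpi the sign in thraa+/- turned with the filter alone: edgeR gave 0.026 when every library had to hold 10 counts of a gene or more, and 0.0044 with no filter beyond 1 count. A share weighs genes by abundance, whereas a median counts every gene once. When genes were compared as log2(TPM + 1) without a filter, which draws scarce genes towards 0, the relative median of WT at 3 dpi was 0.21 and that of thraa+/- 0.38, so the sign of the relative median also depended on how scarce genes were treated.

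On TMM scaling more members were called lower than higher at every time, and the counts did not follow the order of the relative medians. In WT at 8 hpi 62 members were lower and 2 higher (25.8% and 28.1% of all genes), and at 1 dpi 33 and 3 (23.6% and 25.4%). At 7 dpi 72 were lower and none higher (27.3% and 33.9%), and at 15 dpi 76 and none (21.8% and 22%). In thraa+/- 49 were lower and 3 higher at 8 hpi (26.1% and 27.9%), 28 with 13 higher at 1 dpi (27.3%, 26.6%) and 32 with 11 higher at 3 dpi (25.5%, 29.2%). Lower calls numbered 61 with 2 higher at 7 dpi (27.2%, 31.6%) and 72 with 1 higher at 15 dpi (16.7%, 16.8%). Total-count scaling turned the balance up to 7 dpi, with 29 WT members higher and none lower at 8 hpi (47% and 13.5% of all genes), 72 and none at 1 dpi (50% and 10.5%), and 41 and 3 at 7 dpi (63.3% and 10.4%). In thraa+/- it gave 38 higher and 7 lower at 8 hpi (44.3% and 13.9%), which became 64 and 4 without replicate 1 of that pair and 18 and 19 without replicate 2. It gave 73 and none at 1 dpi (47.8% and 12.2%), 79 and none at 3 dpi (58.4% and 9.78%), and 71 and none at 7 dpi (63.8% and 9.88%). At 15 dpi it gave 47 lower and 4 higher in WT (9.07% and 45.1%), and 45 and 5 in thraa+/- (6.36% and 37.8%). Lower calls at 15 dpi were therefore the majority on both scales in both genotypes. At 8 hpi in thraa+/-, the 49 lower calls were 30 without replicate 1 and 69 without replicate 2, and 32 without replicate 1 of the uninjured pair. In WT at 8 hpi the 62 lower calls were 35 without replicate 1. In thraa+/- the 28 lower calls at 1 dpi were 13 and 16 without either uninjured library and 18 without replicate 1 of 1 dpi, and the 32 at 3 dpi were 21 without replicate 1 of the uninjured pair.

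The size of the changes was modest beside that of all tested genes, which were not matched to the members in abundance. The study required an adjusted p under 0.05 and a log2 change of 1 or more in size, and with these cutoffs edgeR called 1 member in WT at 8 hpi, 1 dpi and 3 dpi, 4 at 7 dpi and 5 at 15 dpi. The same cutoffs called 29%, 25.6%, 35.2%, 37.8% and 18.7% of all genes. In thraa+/- they called 1, 1, 2, 2 and 1 members against 30.5%, 30.7%, 31.9%, 36.5% and 11.9%. The interquartile range of the log2 change over members was 0.21 to 0.48 in the 10 injury comparisons, and over all genes 0.94 to 1.89.

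The genes that build ribosomes were highest earlier than the ribosomal proteins. A list of 84 ribosome biogenesis genes (nucleolar processing and assembly factors and subunits of RNA polymerase I) was already higher at 8 hpi in WT, with 76 higher and 2 lower, where 28.1% and 25.8% of all genes were, and a median log2 change of 1.54 beside 0.09 over all genes. Among them fbl, the methyltransferase of box C/D particles, was at 1.99, npm1a, the nucleolar chaperone, at 2.12, and polr1b, a core subunit of RNA polymerase I, at 2.37. The median was 0.83 at 1 dpi, then 0.54 at 3 dpi, while at 7 dpi 32 genes of the list were lower and 14 higher (27.3% and 33.9% of all genes). Their share of all counts was 0.144% and 0.147% in uninjured WT and 0.506% and 0.517% at 8 hpi, whereas the share of the members was highest at 3 dpi. In thraa+/- the list stood at 0.87 at 8 hpi with 62 higher and 8 lower (27.9% and 26.1% of all genes), and 0.348% and 0.343% of counts. Without replicate 1 of that pair it had 64 higher and 5 lower, and without replicate 2 it had 60 and 7.

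Ribosomal proteins of the mitochondria, a list of 75 genes, had lower medians than the members at every time. On TMM 70 of 75 were lower at 8 hpi, 73 at 3 dpi and 74 at 7 dpi in WT, where 25.8%, 25.5% and 27.3% of all genes were. The WT median at 7 dpi was -1.65, or -0.80 with total counts, although with total counts it was 0.15 at 1 dpi. Both mrpl12 at -1.92 and mrps15 at -1.80 on TMM belong to it. In thraa+/- all 75 were lower at 7 dpi (27.2% of all genes), with a median of -1.69. Translation factors resembled the members: of 46 tested, 34 were lower and 6 higher in WT at 7 dpi on TMM scaling (27.3% and 33.9% of all genes), with a median of -0.60 that became 0.25 with total counts. Among these factors, eif1, which scans for the start codon, was at -1.51 and eef1a1l1, which carries aminoacyl-tRNA to the ribosome, at -1.04, whereas eif3a, the largest subunit of its initiation complex, was at 0.48. The ribosomal protein encoded by fau as a ubiquitin-like fusion, which the symbol rule does not catch, was at -0.69 in the same comparison.

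**Figure D2:**
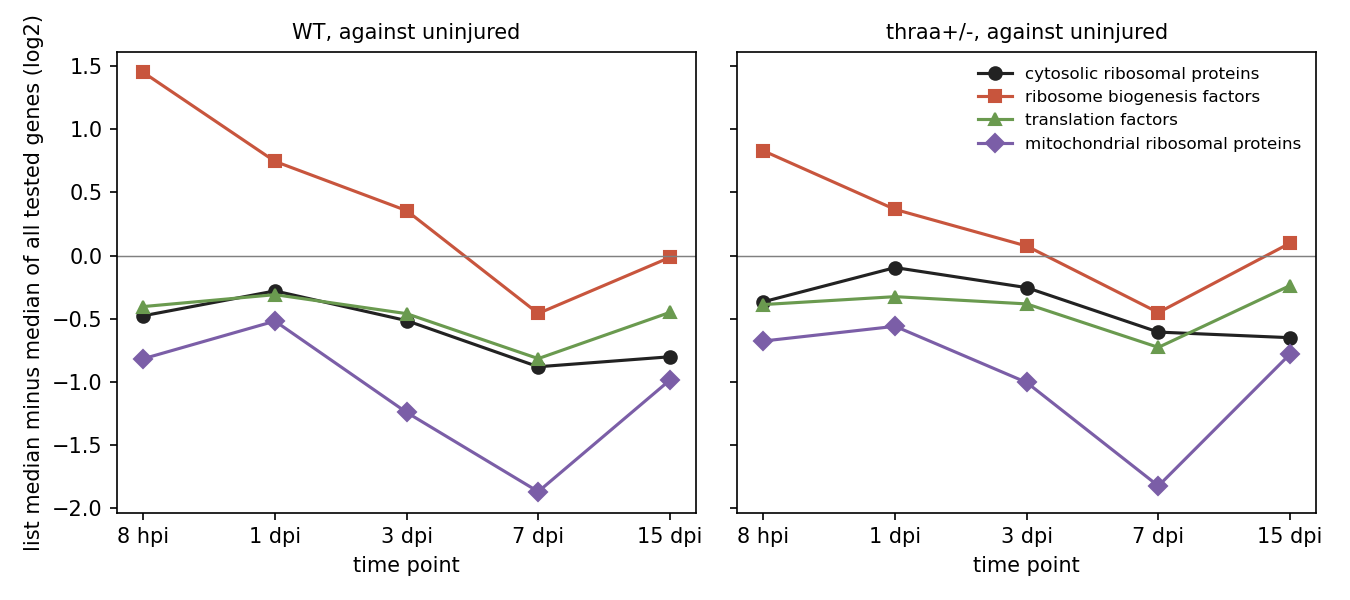
Median log2 change against uninjured hearts minus the median of all tested genes (y axis) for the 83 tested ribosomal protein genes and for lists of ribosome biogenesis, mitochondrial ribosomal protein and translation factor genes, by time after injury (x axis), in WT and in thraa+/-. Ribosome biogenesis genes were highest at 8 hpi (1.45 above all genes in WT), while the ribosomal proteins were nearest to all genes at 1 dpi.

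Levels of different members were compared per length, as TPM. In uninjured WT the median member had 1856 TPM, 69 of 83 exceeded 1000 TPM and 41 were among the 100 most abundant genes of the tissue. The highest were rps2, a protein of the mRNA entry channel, at 3414 ± 58.9 TPM (SD, n = 2), rpl26 at 3336 ± 93.9 and the stalk protein rplp2 at 3272 ± 41.5. Among the lowest tested members were rps19bp1 at 5.88 ± 0.0495 and rpl7l1 at 23.9 ± 0.856. The first 10 by TPM shared only 4 members with the first 10 by counts, where length adds to the value, and neighbours near the top lay within their spread. The order was largely kept between tissues and conditions. Across the 83 members, which share their libraries and are not independent, Spearman's rho of uninjured WT was 0.962 with uninjured thraa+/-, 0.940 with WT whole hearts and 0.869 with WT at 3 dpi.

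Single members departed from the family after injury to differing degrees. To see this without the question of scaling, the summed counts of the members served as library size, so that each change is given relative to the family. On this scale 55 of 83 members stayed within 20% of the family in WT at 3 dpi and 51 in thraa+/-. At an adjusted p under 0.05, 30 members were higher and 17 lower in WT (42% and 16.3% of all genes) and 29 and 21 in thraa+/- (32.3% and 18.3%). Beside these shares of all genes the counts do not set the members apart in either genotype. At the other times 12 to 27 WT members were higher and 13 to 19 lower, where 39.5%, 32.6%, 55.1% and 53.2% of all genes were higher at 8 hpi, 1, 7 and 15 dpi and 14.6%, 15.1%, 11.8% and 5.2% lower. In thraa+/- 16 to 32 were higher and 17 to 24 lower, where 37.1%, 29%, 47% and 46.3% of all genes were higher and 15.2%, 20%, 14.1% and 3.25% lower. Over the 10 injury comparisons, which share their uninjured libraries within a genotype, 27 members were higher in at least 5 and 17 were lower in at least 5. In both directions at different times 17 were called, and 5 were called in none. The share of all genes meeting the same rules is not given here, so these counts do not set the members apart.

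Among the members that rose against the family at 3 dpi were several short ones. rps29 (ENSDARG00000041232), a zinc-binding protein of the head of the small subunit, had 528 and 456 CPM (counts scaled to the TMM-adjusted library size) in uninjured WT, 679 and 818 at 1 dpi and 777 and 780 at 3 dpi. By 7 dpi it was at 439 and 410, and at 15 dpi at 304 and 273. In thraa+/- the uninjured libraries held 344 and 359 CPM, those of 3 dpi 825 and 921 and those of 15 dpi 220 and 314. At 3 dpi the injured libraries lay above the uninjured ones in both genotypes, with log2 changes of 0.66 ± 0.242 (SE, adjusted p = 0.0325) in WT and 1.31 ± 0.245 (adjusted p = 0.000474) in thraa+/- by edgeR, and of 1.03 and 1.49 relative to the family. The WT call on TMM was lost when a library was left out, whereas relative to the family its adjusted p was 3.57e-06.

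Others with the same direction at 3 dpi, given as log2 change relative to the family in WT and then thraa+/-, were the surface protein rpl38 (0.64 and 0.97), rpl39, which lines the exit tunnel (0.60 and 0.70), rpl35a (0.46 and 0.90), rps28 (0.32 and 0.86) and rps21 (0.49 and 0.39). Of these rpl35a was not short, with a relative effective length of 1.68 against 0.0557 for rps29. In the opposite direction rpl26 was lower than the family in 10 of 10 injury comparisons, rps27.2 in 9 and rplp2, rps3a and rpl13 in 8. rpl26 (ENSDARG00000102317), whose human counterpart also binds p53 mRNA, had 1889 and 1876 CPM in uninjured WT, 1116 and 1077 at 3 dpi and 889 and 907 at 7 dpi. Its injured libraries at both times lay below the uninjured ones. The log2 change at 7 dpi was -1.07 ± 0.103 (adjusted p = 3.44e-09) on TMM, -0.39 relative to the family and -0.22 with total counts.

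Change from 1 to 7 dpi went with gene length among the members. Across 81 members with a length, Spearman's rho between the log2 change and the effective length was -0.44 in WT at 1 dpi, -0.40 at 3 dpi and -0.27 at 7 dpi, and -0.43, -0.38 and -0.39 in thraa+/-, whereas across all genes it lay between -0.08 and 0.14 in these comparisons. At 8 hpi it was -0.016 in WT and -0.20 in thraa+/-, and at 15 dpi it was positive, at 0.12 and 0.055. The ratio of counts per TPM between the short rps29 and the long rpl4, which reflects the effective lengths that RSEM used in a library, was 0.0904 and 0.104 in uninjured WT, 0.0851 and 0.0931 at 3 dpi and 0.0604 and 0.0609 at 7 dpi. A difference in fragment length between libraries would act on short genes, and its part in these relative changes was not tested.

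**Figure D3:**
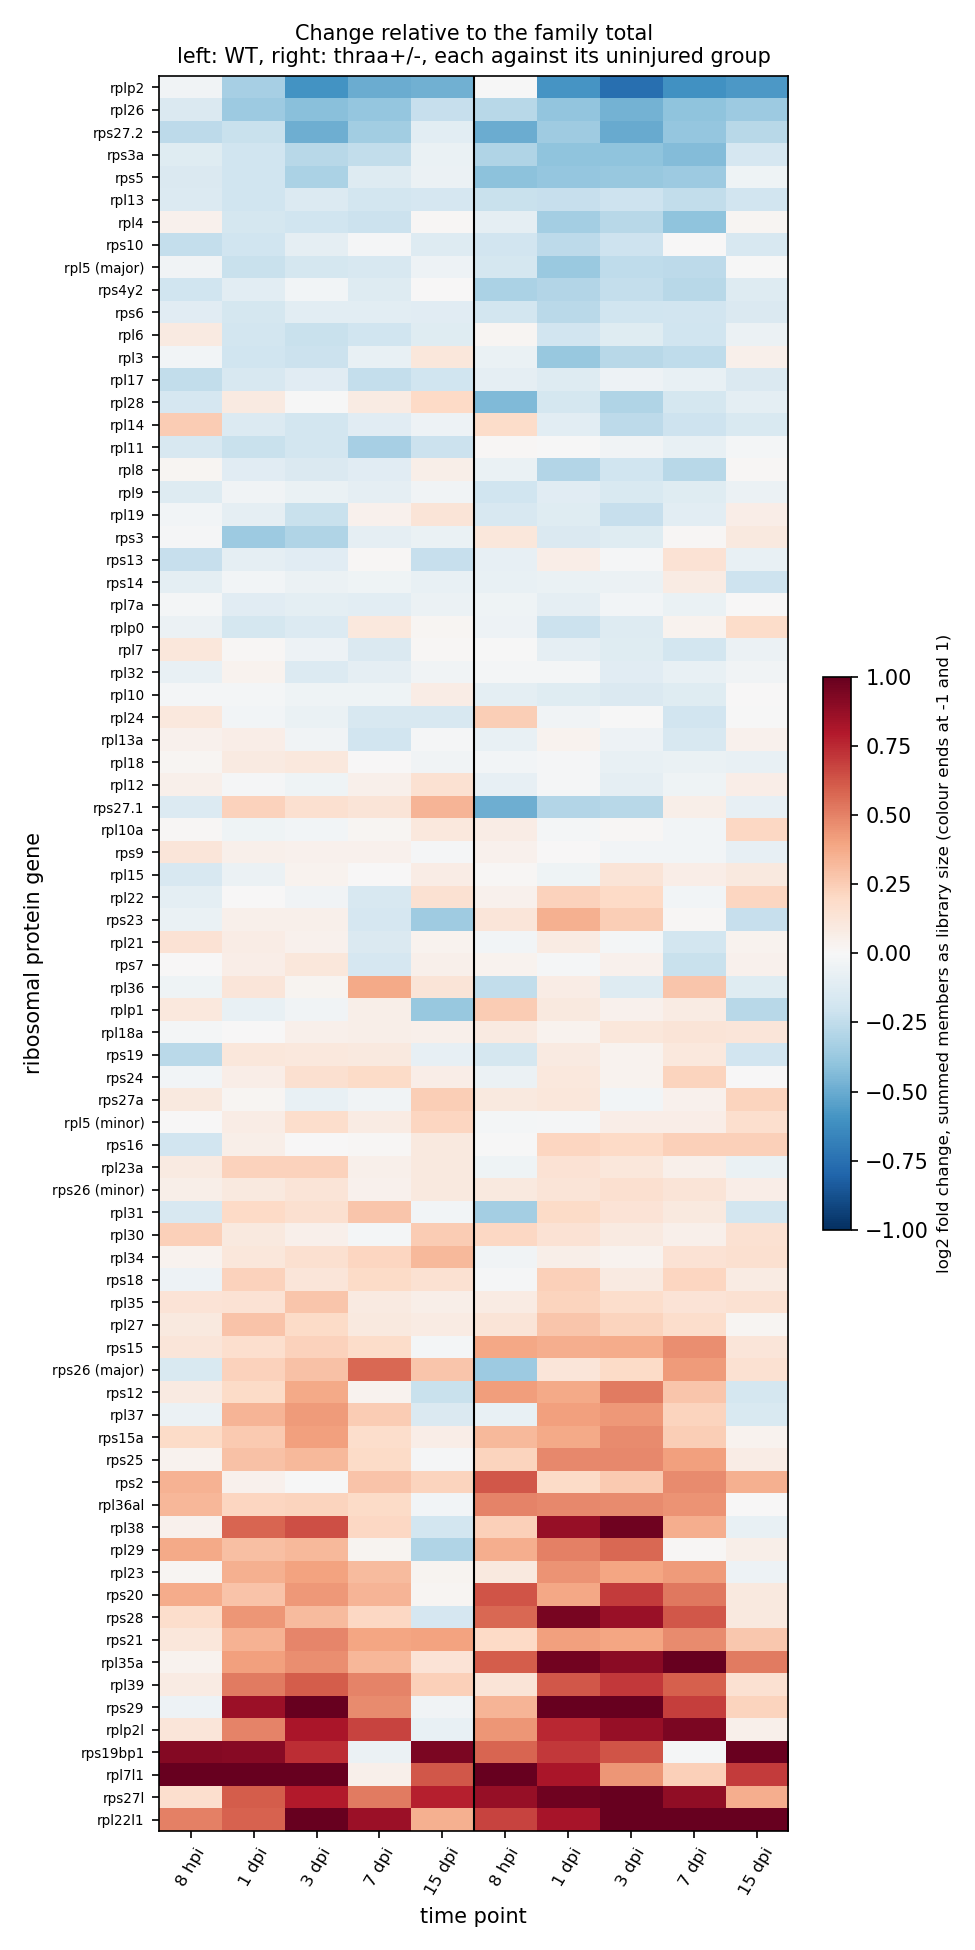
Heat map of the log2 change of tested ribosomal protein genes (rows, without members not reported individually) against uninjured hearts, relative to the summed counts of the family, in 10 injury comparisons (columns: 5 times in WT and 5 in thraa+/-); colours end at -1 and 1. rpl22l1 was higher in all 10 columns and rpl26 lower in all 10.

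The balance between paralogs of a ribosomal protein shifted after injury. RSEM divides reads that fit several genes by estimation, so the split between near-identical copies is less certain than their sum. The widest shift was in the stalk of the large subunit, where rplp2 (ENSDARG00000101406) and rplp2l (ENSDARG00000011201) encode forms of an acidic protein that recruits elongation factors. rplp2l made up 31.9% and 32.3% of their summed TPM in uninjured WT, 34.0% and 34.3% at 8 hpi, 44.9% and 45.1% at 1 dpi and 55.5% and 55.5% at 3 dpi. It then made up 50.6% and 49.8% at 7 dpi and 35.2% and 40.2% at 15 dpi. In thraa+/- it went from 30.3% and 26.2% to 53.1% and 56.0% at 3 dpi and back to 38.7% and 35.2%. From 1 to 7 dpi no library overlapped the uninjured ones in either genotype.

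Both partners moved, in opposite directions relative to the family. Relative to the family at 3 dpi, rplp2l was at 0.81 in WT and 0.87 in thraa+/- and was higher in 7 of 10 injury comparisons, while rplp2 was at -0.60 (adjusted p = 5.75e-06) and -0.75 (adjusted p = 1.72e-07). rplp2 had 973 and 896 CPM in uninjured WT, 483 and 472 at 3 dpi and 419 and 410 at 7 dpi. These groups did not overlap, and at 3 dpi the log2 change was -0.97 ± 0.202 (adjusted p = 0.00104). As TPM, rplp2 had 3242 and 3301 in uninjured WT, 2980 and 2853 at 3 dpi and 3253 and 3231 at 7 dpi. The 3 dpi libraries lay below the uninjured ones on this scale as well, and those of 7 dpi overlapped them. With total counts its log2 change at 7 dpi was -0.33.

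rpl22l1 (ENSDARG00000010244), the paralog of the RNA-binding protein rpl22, gained on its partner as well. It held 10.3% and 9.65% of their summed TPM in uninjured WT, 15.5% and 16.4% at 1 dpi, then 26.5% and 24.6% at 3 dpi, with a later decline to 12.1% and 11.5% at 15 dpi. In thraa+/- the start was lower, 7.55% and 7.93%, the 3 dpi value 17.4% and 16.1%, and the 15 dpi value 14.0% and 16.2%. Its CPM rose from 75.0 and 67.7 to 144 and 131 at 3 dpi in WT and from 46.0 and 44.5 to 98.0 and 94.1 in thraa+/-. The injured values lay above all uninjured ones, with log2 changes of 0.94 ± 0.206 (adjusted p = 0.0015) and 1.09 ± 0.217 (adjusted p = 0.000792). It was higher than the family in 10 of 10 injury comparisons.

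Shifts within other groups were smaller. In the rps27 group, whose protein holds a zinc finger, rps27.1 went from 37.9% and 38.3% to 48.4% and 48.8% at 3 dpi in WT, and from 37.7% and 38.2% to 41.1% and 41.5% in thraa+/-. The scarce rps27l, whose human counterpart is induced by p53, went from 0.817% and 0.765% to 1.46% and 1.63% in WT and from 0.489% and 0.439% to 1.25% and 1.31% in thraa+/-. The minor identifier of rps26 moved the other way, from 25.0% and 23.1% to 14.6% and 15.2% at 7 dpi in WT. This share rests on the length scaling of TPM, since the relative effective length was 0.691 for the minor and 0.107 for the major identifier. By counts the minor was the larger, with 461 and 504 CPM against 270 and 269 in WT whole hearts. The part of effective lengths that differed between libraries in this shift was not tested. The minor identifier of rpl5 lay between 45.1% and 52.5% of its pair throughout the time course.

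**Figure D4:**
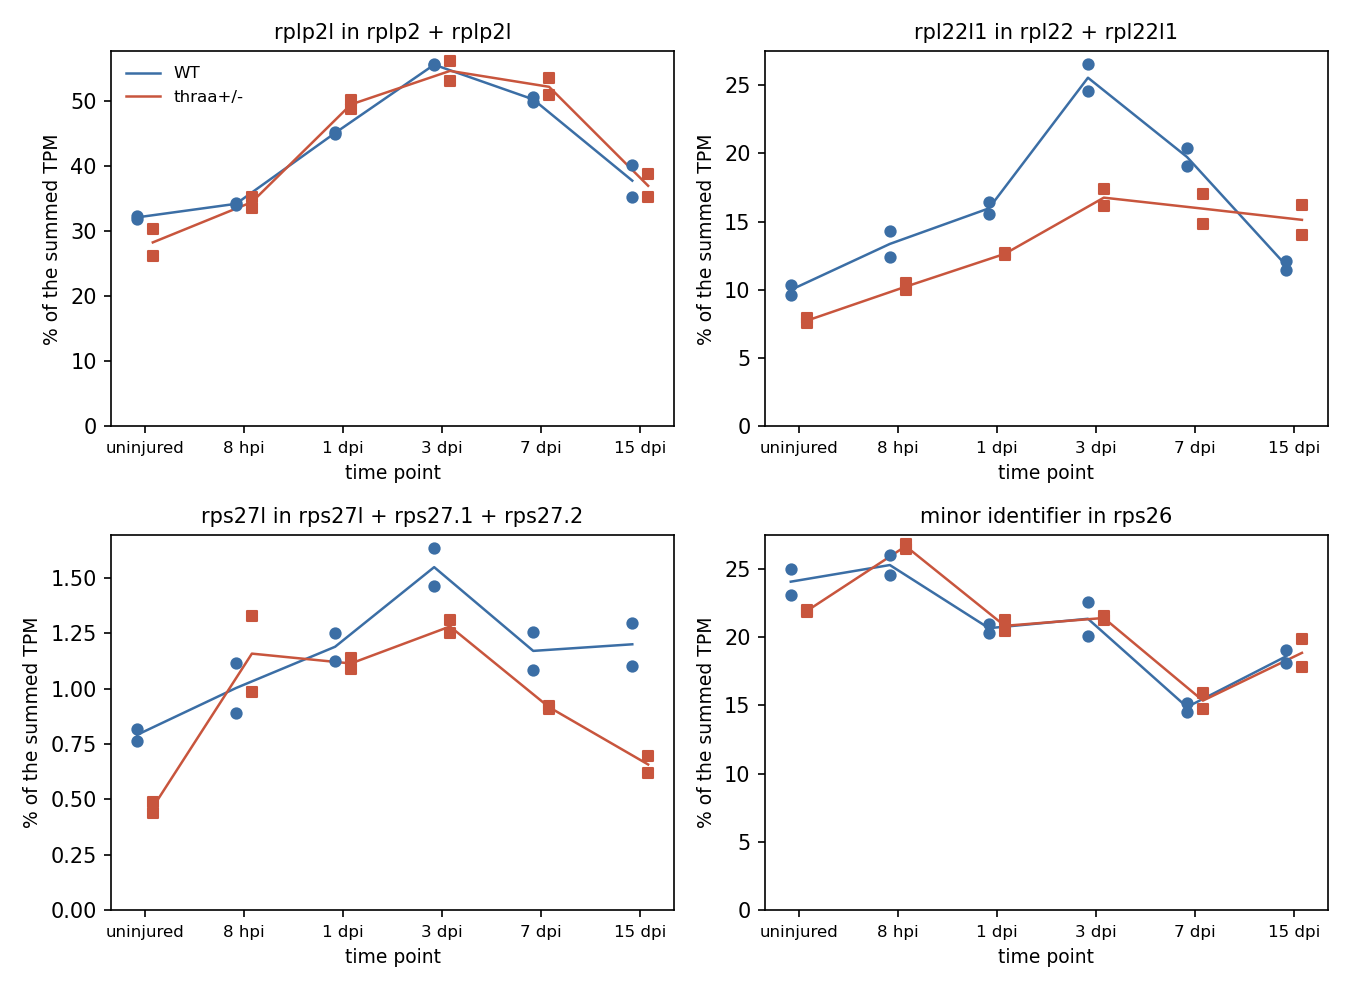
Percent of the summed TPM of a paralog group held by rplp2l, rpl22l1, rps27l and the minor identifier of rps26 (one panel each, y axis) by time after injury, each point a library, WT and thraa+/- in separate colours. At 3 dpi rplp2l held 55.5% in both WT libraries, against 31.9% and 32.3% without injury.

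The members that are not structural proteins of the mature ribosome had their own course. rpl7l1 (ENSDARG00000042864) had 29.6 and 30.8 CPM in uninjured WT, 70.9 and 79.8 at 8 hpi, 63.8 and 62.7 at 1 dpi and 51.9 and 49.4 at 3 dpi. At 7 dpi it was at 21.8 and 17.3, below its starting level on this scale, and at 15 dpi at 30.3 and 25.7. As TPM the 7 dpi libraries, at 30.6 and 24.2, overlapped the uninjured ones, at 23.3 and 24.5. The log2 change at 8 hpi was 1.32 ± 0.134 (adjusted p = 2.33e-09), the single member past the study's cutoffs at that time, and with total counts it was 1.84. Like the biogenesis list, rpl7l1 was highest at 8 hpi, when it stood 1.71 above the family on the log2 scale. In thraa+/- it went from 22.0 and 25.99 to 39.7 and 59.4 CPM, with a log2 change of 1.04 ± 0.141 (adjusted p = 3.63e-07), which was 1.31 without replicate 1 at 8 hpi and 0.73 without replicate 2.

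rps19bp1 went from 17.4 and 17.6 CPM to 23.0 and 27.3 at 8 hpi, 26.9 and 28.3 at 1 dpi and 11.5 and 9.39 at 7 dpi in WT. On this TMM scale the early values lay above the uninjured ones and those of 7 dpi below. Its value at 7 dpi with total counts is not given here, so the fall is stated for TMM only. At 1 dpi the log2 change was 0.66 ± 0.127 (adjusted p = 2.71e-05).

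Members used as reference genes in quantitative PCR, or known from ribosome biology, were lower after injury on TMM scaling in most comparisons, and their sign with total counts depended on the time. rplp0, the base of the stalk and a common reference gene, had 4010 and 3991 CPM in uninjured WT and 2840 and 2799 at 3 dpi. It was called lower in 10 of 10 injury comparisons with log2 changes between -0.72 and -0.31, but with total counts the changes ran from -0.21 to 0.46. Another reference gene, rpl13a, was called lower in 8 and rps18 in 7. Among proteins tied to p53 surveillance, the major identifier of rpl5 was called lower in 10, the minor in 6 and rpl11 in 8. rps6, the substrate of S6 kinase, rpl8, rpl10, the late joining protein of the large subunit, and rpl3 were each called lower in 10, and rps19, the protein most often mutated in human Diamond-Blackfan anaemia, in 6. rpl38 was the exception of this group, called lower in 2 and higher in 2, between -0.92 and 0.79.

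Before injury, ribosomal protein mRNA was lower in thraa+/- than in WT. The members held 6.43% and 6.46% of counts against 7.34% and 7.26%, a difference of -11.7% without overlap. Of the 83 members none were higher and 19 lower on TMM (15% and 16.2% of all genes), and total counts gave none higher and 37 lower (14.1% and 16.6%). The median relative to all genes was -0.16. DESeq2 called 31 lower and a fit of only these 4 libraries 63, while the 19 were 12 without WT replicate 1 and 11 without thraa+/- replicate 2. The counts of DESeq2 and of the fit of 4 libraries are given without the shares of all genes and do not set the members apart. The mitochondrial share moved in the other direction, 21.9% and 21.2% in thraa+/- against 14.7% and 14.5%. With the mitochondrially encoded genes taken out of the total the difference in share was -3.91%. Of 25 leukocyte markers 12 were lower and none higher, with summed TPM of 239 and 245 against 401 and 424, and of 15 fibroblast and epicardial markers 11 were lower and 1 higher. The part of these cells in the lower level of the members was not tested.

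The lowest log2 differences before injury were those of rps27l, rpl35a and rpl22l1. rpl35a (ENSDARG00000088030), part of the large subunit, had 563 and 530 CPM in thraa+/- against 878 and 863 in WT, without overlap, at -0.67 ± 0.124 (adjusted p = 0.000385) on the log2 scale. rps27l (ENSDARG00000100513) had 15.8 and 14.2 CPM against 25.7 and 25.1, also without overlap, at -0.76 ± 0.212 (adjusted p = 0.00916). rpl22l1 had 46.0 and 44.5 CPM against 75.0 and 67.7, at -0.66 ± 0.228 (adjusted p = 0.0437), a call that was lost when a library was left out. Relative to the family, 5 members were higher and 14 lower (17.6% and 8.78% of all genes).

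After injury the difference in share between genotypes varied with time. The share in thraa+/- differed from that in WT by -4.50% at 1 dpi, overlapped WT at 8 hpi and 3 dpi, and differed by 2.71% at 7 dpi and -10.7% at 15 dpi. The members called on TMM were few: none higher and 7 lower at 8 hpi (17.1% and 13.4% of all genes), 3 lower at 1 dpi (11.8% higher, 10.7% lower of all genes), 1 in each direction at 3 dpi (12.9%, 12.7%), 1 lower at 7 dpi (11.7%, 9.46%) and 4 lower at 15 dpi (12.8%, 10.7%). At 15 dpi these were 2 without WT replicate 1 and 1 without thraa+/- replicate 2, and the call at 7 dpi was lost without WT replicate 2 or thraa+/- replicate 1. With total counts 27 were lower at 8 hpi and 33 at 15 dpi (15.1% and 15.2% of all genes), and the 27 became 11 lower and 5 higher without replicate 1 of thraa+/- at 8 hpi and 75 lower without replicate 2. The comparison at 8 hpi rests on the divergent thraa+/- pair: without replicate 2 of it 77 members were lower, and without replicate 1 28 were higher and 3 lower. Without replicate 2 of WT 2 were lower.

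rpl31 (ENSDARG00000053365), which sits at the exit of the peptide tunnel, was the member that set the genotypes apart most often. It had 2078 and 1978 CPM in uninjured WT and 1584 and 1481 in thraa+/-, 1285 and 1481 against 789 and 1151 at 8 hpi, and 1942 and 1969 against 1593 and 1548 at 1 dpi. At 3 dpi the values were 1835 and 1692 against 1481 and 1495, at 7 dpi 1517 and 1550 against 1144 and 1157 and at 15 dpi 1187 and 1196 against 912 and 845. The thraa+/- libraries lay below the WT libraries at 6 of 6 times. edgeR called it at 5, with the exception of 3 dpi (log2 difference -0.25), and the mean of the 6 differences was -0.39 ± 0.0434 (adjusted p = 1.68e-07). At 8 hpi the log2 difference was -0.51, or -0.26 without replicate 1 of thraa+/- and -0.81 without replicate 2. The call at 1 dpi (adjusted p = 0.0347) was lost in each of the 4 fits that left out a library.

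rpl7l1 was lower in thraa+/- early after injury, at -0.61 at 8 hpi (-0.34 without replicate 1 of thraa+/-, -0.92 without replicate 2), -0.74 at 1 dpi (adjusted p = 4.58e-05) and -0.82 ± 0.126 at 3 dpi (adjusted p = 1.05e-05). At 3 dpi its CPM were 28.7 and 28.6 against 51.9 and 49.4, and at 7 dpi, with 18.7 and 21.0 against 21.8 and 17.3, the groups overlapped. The biogenesis list was lower in thraa+/- at the same early times, with 70 of 84 genes lower and none higher at 8 hpi, 20 and none at 1 dpi and 24 and 3 at 3 dpi, where 13.4%, 10.7% and 12.7% of all genes were lower. At 8 hpi the 70 were 52 without replicate 1 of thraa+/- and 72 without replicate 2, with none higher in either. Summed leukocyte markers stood at 1079 and 1058 TPM in thraa+/- against 388 and 408 in WT at 8 hpi, and their part in this was not tested.

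Over the mean of the 6 differences 18 members were lower and 1 higher on TMM (18.2% and 19.3% of all genes), and 54 lower and none higher with total counts (21.3% and 16.4%). Relative to the family 8 were higher and 12 lower (21.8% and 10.2%). rpl7l1 was at -0.44 ± 0.0548 by edgeR (adjusted p = 2.24e-07), rps27l at -0.43 ± 0.0768 (adjusted p = 0.000119) and rpl22l1 at -0.33. Without replicate 2 of thraa+/- at 8 hpi 68 were lower, and without its replicate 1 7 were higher. rpl22l1 had a negative difference at 5 of 6 times, was at 0.26 at 15 dpi and was called lower only before injury. rps27l had a negative difference at 5 of 6 times but was called lower at only 2, before injury and at 15 dpi. At 15 dpi, where it was lowest, it had 12.5 and 12.6 CPM against 25.5 and 26.6, at -1.05 ± 0.196 by edgeR (adjusted p = 0.000384).

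The injury response itself, tested as the interaction of genotype and time, was a little more positive in thraa+/- for the family. The median relative to all genes was 0.10 at 8 hpi, 0.14 at 1 dpi, 0.19 at 3 dpi, 0.19 at 7 dpi and 0.10 at 15 dpi, where the value at 8 hpi ran from -0.17 to 0.38 with single libraries left out. Few members passed the test in the model of all 12 groups, 2, 1, 5, 5 and none higher (15.2%, 11.6%, 10.8%, 14.1% and 11.7% of all genes) and none lower except 1 at 1 dpi (11%). The number depended on the model, since a fit of only the compared groups called most members higher at 3 and 7 dpi, as given below. The share of all genes called by that fit is not given, so this does not set the members apart. The 5 at 3 dpi were 1 without WT replicate 1, none without WT replicate 2 and 1 without thraa+/- replicate 2 of that time. The 5 at 7 dpi were 1 without replicate 2 of either genotype at that time and 3 without replicate 1 of either, or without replicate 1 of uninjured WT. At 8 hpi 55 were higher without replicate 1 of thraa+/- and 35 lower without its replicate 2. At 15 dpi, where edgeR called none, 6 members had an unadjusted p under 0.05 and DESeq2 called 3. Neither number has the share of all genes beside it, so neither is read as a result about the members. With total counts 27 were higher at 7 dpi (15.5% of all genes). All of these comparisons contain the uninjured thraa+/- libraries, in which the members were low, so the interactions and the difference before injury are not independent.

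rpl35a was the only member called in 4 of the 5 interactions. It went from 563 and 530 CPM to 944 and 965 at 1 dpi and 746 and 786 at 7 dpi in thraa+/-, whereas in WT it went from 878 and 863 to 928 and 1014 and then to 693 and 674. The genotypes overlapped at 1 dpi, and at 7 dpi both thraa+/- libraries lay above both WT libraries. The difference in response was 0.84 ± 0.174 at 7 dpi (adjusted p = 0.00141) and 0.65, 0.65 and 0.63 at 8 hpi, 1 dpi and 3 dpi. The value at 8 hpi was 0.90 without replicate 1 of thraa+/- at that time and 0.34 without replicate 2.

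In whole hearts few members passed the test between genotypes, and the lowest in thraa-/- were members that were also low in the apex of thraa+/-. The members held 6.57% and 6.78% of counts in thraa-/- hearts against 7.27% and 7.55% in WT, without overlap, a difference of -9.91%, or -6.88% with mitochondrially encoded genes taken out. On TMM 3 members were higher and 3 lower (12.5% and 10.9% of all 15793 genes tested). The 3 higher calls were 6 without WT replicate 1 and 8 without WT replicate 2. DESeq2 called 1 higher and 3 lower, and with total counts none were higher and 14 lower (7.38% and 23.1%). The median member was at 0.09 with TMM and -0.17 with total counts, which moves the median of all genes from -0.02 to -0.27, so that the median relative to all genes was 0.10. Relative to the family none were higher and 4 lower (9.18% and 13.4%).

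For this experiment the study asked for a 1.5-fold change, and with that 3 members were lower and none higher (9.54% and 9.66% of all genes). rps27l had 5.33 and 4.50 CPM in thraa-/- against 11.04 and 12.6 in WT, at -1.26 ± 0.202 (adjusted p = 0.00262). rpl31 had 975 and 1007 CPM against 1503 and 1582, at -0.64 ± 0.0871 (adjusted p = 0.00121). rpl22l1 had 26.2 and 22.8 CPM against 48.1 and 37.1, at -0.80 ± 0.155 (adjusted p = 0.00696). None of the 3 overlapped between genotypes. All 3 were also lower with total counts, and the call of rpl22l1 alone was lost when a thraa-/- library was left out.

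The 3 members called higher were rpl21, rplp0 and rplp1. rpl21 had 754 and 753 CPM against 588 and 586, at 0.36 ± 0.0886 (adjusted p = 0.0189), rplp0 3134 and 3329 against 2415 and 2744, at 0.32 ± 0.0926 (adjusted p = 0.0335), and rplp1, the partner of rplp2 in the stalk, 1017 and 1114 against 859 and 870, at 0.30 ± 0.0916 (adjusted p = 0.0425). Their libraries did not overlap, but all 3 calls were lost without either thraa-/- library, and with total counts the differences were 0.11, 0.07 and 0.05. rpl7l1, lower in thraa+/- after injury, was at -0.05 here. Not every member low in the uninjured apex of thraa+/- was low here. rpl35a and rps28, at -0.67 and -0.64 there, were at -0.0015 and 0.10 in whole hearts. Of 21 leukocyte markers 9 were lower and none higher in thraa-/-, with summed TPM of 194 and 213 against 595 and 545, and of 13 erythrocyte markers 7 were higher and 2 lower. Their part in the differences of the members was not tested.

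**Figure D5:**
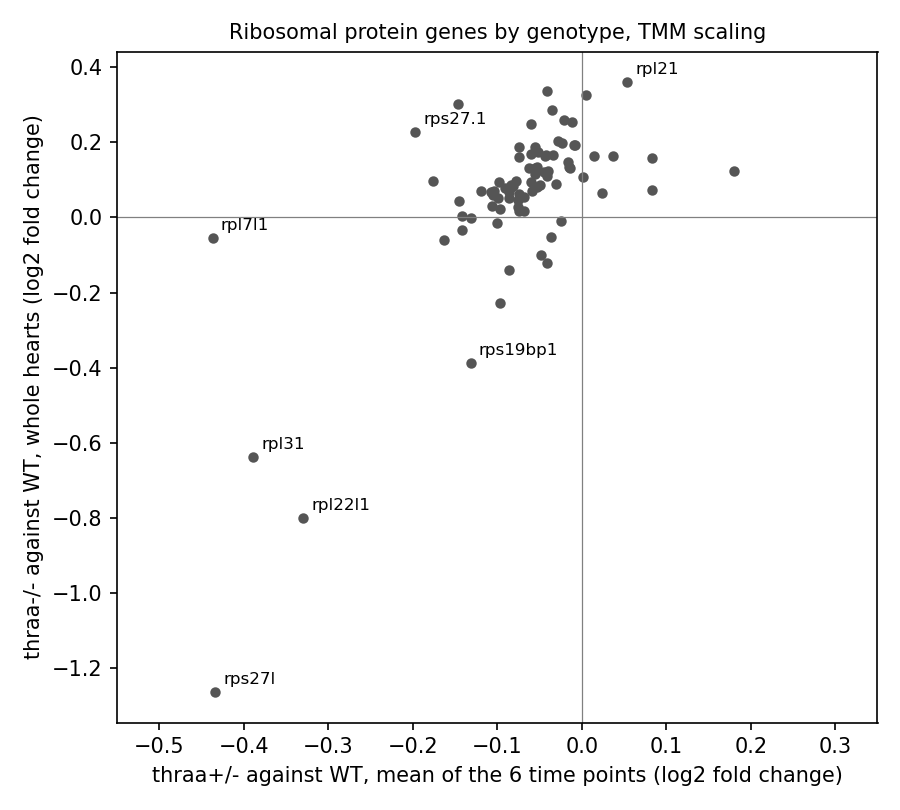
Log2 difference of each of the 83 ribosomal protein genes tested in both experiments between thraa+/- and WT, as the mean over 6 times (x axis), and between thraa-/- and WT whole hearts (y axis), each point a gene. rps27l, rpl31 and rpl22l1 lie low on both axes, at -0.43, -0.39 and -0.33 in the time course and -1.26, -0.64 and -0.80 in whole hearts, while rpl7l1 is low on the x axis alone.

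The experiments share no library. Of the 4 members with the lowest mean difference in the time course, rpl7l1, rps27l, rpl31 and rpl22l1, the last 3 were the 3 lowest in whole hearts. The rps27l share of its group was 0.264% and 0.216% in thraa-/- against 0.604% and 0.640% in WT whole hearts, and the rpl22l1 share 4.02% and 3.40% against 8.58% and 5.81%. Both shares were also lower in the uninjured apex of thraa+/- than in WT, as given above, without overlap in either experiment.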

How the data were processed

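RNA-seq libraries of zebrafish heart tissue, 24 in a time course and 4 of whole hearts, were analysed from 2 kinds of deposited table. Per the submitters' processing notes, reads were trimmed with Trim Galore 0.6.10, aligned to GRCz11 with STAR 2.7.9 and quantified with RSEM 1.3.3. One kind of table holds the expected counts per gene that the authors obtained from RSEM, without normalization, which were rounded to whole numbers here. The other kind holds the TPM values that the authors obtained from the same quantification, divided by effective length and scaled to each library. RSEM shares reads between genes by estimation, which leaves near-identical paralogs uncertain.

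Gene symbols came from a table of Ensembl identifiers, in which 29201 of the 32520 identifiers matched. The genome sequence was not used here, and no coordinates are given. Differences were tested with edgeR 4.0.16 (quasi-likelihood, TMM factors, low counts filtered by group) in R 4.3.3, in 1 model of the 12 time-course groups and 1 of the whole hearts, over all genes that passed the filter, with Benjamini-Hochberg adjustment over all of them. Changes relative to the family used the summed counts of the members as library size, a choice that makes the family's own sum constant. CPM are scaled with TMM factors. Alternatives were DESeq2 1.42.0, limma 3.58.1 on log2(TPM + 1) or log2(TPM + 0.1) of genes with a TPM of at least 1 or of all genes, total-count scaling, other filters, a fit of only the compared groups, a replicate block and leaving out each library. The geometric mean of members with at least 100 counts, and the DESeq2, filter, block and left-out-library versions of the relative scale, were added after seeing the data, as were the total-count fits and the biogenesis counts without each library of thraa+/- at 8 hpi.

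Genes were named by a rule: the 3 largest rises and falls among called members without overlap in each comparison, all paralogs, the 3 highest and 3 lowest by TPM, reference members, and members that are not structural proteins. Of those, the ones that matter to a result are printed; some members enter the counts and medians but are not reported here individually. The members and all gene lists were chosen with earlier results of these data known. Samples were grouped by their labels, which call the replicates biological, each a pool of fish. With 2 libraries in a group, the spread between pools behind a p-value was estimated over all groups of a model, not only the compared ones. Replicates differed by 1.88 to 23.9 times counting noise between groups. The estimated spread can therefore be too small for some groups and too large for others. Library totals were 13.7 to 18.8 M counts. The test was tried on simulated data for WT at 7 dpi over 17837 genes, where it recovered 19 of 50 genes changed 1.5-fold, 37 of 50 changed 2-fold, 46 of 50 changed 3-fold and 44 of 50 changed 4-fold. The changed genes were few, balanced between rises and falls, and drawn at random from expressed genes. The trial therefore does not bear on the choice of scale or on the members in particular.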

Additional observations from a re-analysis of the deposited data

Results flagged for a closer look

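Interactions between genotype and injury of members reported individually that passed edgeR's test at an adjusted p under 0.05 are listed here as log2 differences in response, thraa+/- minus WT, because the response then differed between genotypes. All of them use the same uninjured libraries, so those of 1 gene at several times are not independent.

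rpl35a differed at 4 times, by 0.65 at 8 hpi (adjusted p = 0.00939), 0.65 at 1 dpi (adjusted p = 0.0113), 0.63 at 3 dpi (adjusted p = 0.0164) and 0.84 at 7 dpi (adjusted p = 0.00141), and the call at 3 dpi was lost in 1 fit that left out a library (adjusted p = 0.0602). rps27l differed by 0.79 at 8 hpi (adjusted p = 0.0447), which was 0.26 without replicate 2 of thraa+/- at 8 hpi. rps27.1 differed by -0.43 at 1 dpi (adjusted p = 0.0317), the single negative value, and this call was lost in 7 of 8 fits with a library left out.

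At 3 dpi the small-subunit members rps16 (0.39), rps2 (0.45), the mRNA entry protein, and rps3 (0.37), its neighbour, differed in the same direction. At 7 dpi rps16 (0.39), rps15 (0.45) and the large-subunit protein rpl11 (0.42) did. Adjusted p-values of these 6 ranged from 0.0176 to 0.0445, and their calls include some that were lost when a library of 3 or 7 dpi was left out.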

How the results depend on the processing

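The relative median, the median log2 change of members minus that of all genes, depended on how scarce genes entered. With limma on log2(TPM + 1) of all genes it was 0.12 at 8 hpi, 0.22 at 1 dpi, 0.21 at 3 dpi, -0.0051 at 7 dpi and -0.22 at 15 dpi in WT, and 0.12, 0.38, 0.38, 0.26 and -0.18 in thraa+/-. For thraa+/- against WT it was -0.19 in uninjured hearts, -0.053 at 3 dpi, 0.085 at 7 dpi and -0.17 at 15 dpi, for the interaction at 7 dpi 0.26, and for whole hearts -0.10. On log2(TPM + 1) with the filter it was -0.15, -0.010, -0.18, -0.36 and -0.44 in WT, 0.13, 0.047, -0.12 and -0.38 in thraa+/- from 1 to 15 dpi, and 0.024 in whole hearts. On log2(TPM + 0.1) it was -0.35, -0.19, -0.46, -0.62 and -0.62 in WT and -0.041, -0.20, -0.37 and -0.54 in thraa+/- from 1 to 15 dpi. With at least 10 counts in every library the 4 values from 1 to 15 dpi were -0.16, -0.33, -0.57 and -0.68 in WT and 0.026, -0.069, -0.35 and -0.59 in thraa+/-. Without a filter beyond 1 count they were -0.17, -0.38, -0.74 and -0.71 in WT, 0.0044, -0.16, -0.45 and -0.56 in thraa+/-, -0.21 for the genotypes before injury and 0.25 for the interaction at 3 dpi. A fit of only the compared groups gave -0.84 for WT at 7 dpi, and -0.075 and -0.57 for thraa+/- at 1 and 7 dpi, and DESeq2 gave -0.19 for the genotypes before injury. The cause was not tested.

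As a share of summed TPM in place of counts, the log2 ratio to uninjured was 0.23 at 8 hpi, 0.28 at 7 dpi and -0.12 at 15 dpi in WT, and 0.50, 0.55 and -0.10 at 1, 7 and 15 dpi in thraa+/-. For thraa+/- against WT it was -0.20 before injury, -0.021 at 1 dpi and 0.074 at 7 dpi, and for whole hearts -0.22. Without genes encoded in mitochondrial DNA the log2 ratio to uninjured was 0.35 at 3 dpi and 0.084 at 7 dpi in WT, and 0.29, 0.39, 0.16 and -0.23 from 1 to 15 dpi in thraa+/-, and for the genotypes before injury it was -0.057. Neither setting turned the sign of these shares. By counts, 4 of the 10 highest members by TPM were again among the first 10.

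Signs turned for rps19 in WT at 8 hpi (0.064 by each limma version), rplp2 in WT at 1 dpi (0.0033 with total counts and 0.059 by limma) and in thraa+/- at 7 dpi (0.13 by limma), and rplp1 in whole hearts (-0.014 by limma). Over all the named genes 878 values kept direction and call under settings other than leaving out a library, 74 lost the call, 8 gained it and 13 turned.

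Counts of members called moved most with scale and tool. limma on log2(TPM + 1) called 72 higher and none lower in WT at 3 dpi, and 9 higher and 36 lower at 15 dpi. A fit of only the compared groups called 66 interactions higher at 3 dpi and 63 at 7 dpi, where the model of all 12 groups called 5 and 5. The shares of all genes called by limma and by this fit are not given here. Without them these counts do not set the members apart.

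With single libraries left out, the relative median in WT ran from -0.55 to -0.34 at 8 hpi, -0.31 to -0.21 at 1 dpi, -0.55 to -0.47 at 3 dpi, -0.91 to -0.84 at 7 dpi and -0.84 to -0.71 at 15 dpi. In thraa+/- it ran from -0.61 to -0.08 at 8 hpi, -0.16 to -0.095 at 1 dpi, -0.31 to -0.20 at 3 dpi, -0.64 to -0.56 at 7 dpi and -0.66 to -0.60 at 15 dpi. Between genotypes it ran from -0.24 to -0.18 before injury and from -0.38 to 0.15 at 8 hpi, and for the interaction from -0.17 to 0.38 at 8 hpi and 0.16 to 0.24 at 7 dpi. Of the member counts, lower calls in WT at 8 hpi were 35 without replicate 1 of that group, interactions higher at 8 hpi were 55 without replicate 1 of thraa+/- at 8 hpi, lower calls in uninjured thraa+/- ran from 11 to 13, interactions higher at 3 dpi from 0 to 5, and members higher in whole hearts from 0 to 8.

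The replicate numbers showed little pairing of the libraries: deviations of same-numbered libraries correlated with r between -0.02 and 0.20 over 16 pairs of groups, and 0.03 in whole hearts. The value of 0.20, the only 1 above 0.1, was between WT and thraa+/- at 8 hpi, where the thraa+/- replicates diverged most. A batch shared by same-numbered libraries at that time was not tested. With the replicate number as a block, the relative medians and the member counts kept their calls, with relative medians from -0.88 to 0.19, and 1 named call was lost, rpl31 between genotypes at 1 dpi (-0.32).

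Depth was not limiting for most members, but 2 pooled libraries in a group limit each test, and rps27l and rpl7l1 rest on few counts beside the rest of the family. Changes of direction between scales cannot be settled without an external standard. The fragment-length difference between libraries, the cell mixture and the estimated split between paralogs were not corrected.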

Other observations

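Genes that control the making of ribosomal proteins, a list of 30, changed in both directions at 8 hpi in WT, with 12 higher and 9 lower where 28.1% and 25.8% of all genes were, and a median of 0.04 beside 0.09 over all genes. Those higher included larp1 (1.57), which holds back the translation of ribosomal protein mRNAs, larp4aa (2.40) and the S6 kinase rps6kb1b (0.76). Those lower included sesn1 (-2.54), an inhibitor of mTORC1, eif4ebp1 (-1.02), which blocks cap-dependent initiation, and the mTORC1 inhibitors tsc2 (-1.05) and akt1s1 (-1.14). The other lower calls were eef2k (-0.77), eif4ebp2 (-0.57), rhebl1 (-0.54), mtor itself (-0.28) and 1 identifier of eif4ebp3 (-0.23). With total counts the sign turned for mtor (0.24) and this eif4ebp3 identifier (0.29), while eif4ebp2 was at -0.05 and rhebl1 at -0.02. On that scale sesn1 (-2.02), akt1s1 (-0.62), tsc2 (-0.52), eif4ebp1 (-0.50) and eef2k (-0.25) kept their negative sign. In whole hearts 10 were higher and 1 lower in thraa-/- (12.5% and 10.9% of all genes). The higher ones included sesn1 (0.95), sesn2 (1.15), eif4ebp3 (0.90) and eef2k (0.88), a kinase that slows elongation, and the lower one was mycn (-1.39). Except where total counts are named, all values are log2 changes on TMM scaling.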
